A study of Saccharomyces cerevisiae with 18 samples.

Results

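The 60 genes described here encode ribosome assembly factors of budding yeast, proteins of the nucleolus and of later pre-ribosomal particles that bind, modify or fold ribosomal RNA or take part in its processing. They were listed by symbol, with helicases and RNA polymerase subunits left out, and all 60 were found among the 5650 genes with 1 symbol on the array. Cells of the haploid laboratory strain W303-1A, the parent, and of its ethanol-tolerant mutants SM1 and CM1 were grown with 0 or 6.5 % v/v ethanol, in 3 separate cultures per group. The labels name neither the mutated genes nor a time of sampling. Each of the 18 two-colour arrays set the RNA of 1 culture against the same pool, made of RNA from the 3 W303-1A cultures without ethanol, so the arrays of that group were compared with a mixture that holds their own RNA. Replicate 1 of every group was labelled with the dyes swapped. RNA was taken from equal numbers of cells, but the deposited ratios are normalized and do not give the amount of RNA per cell. A lower ratio in a culture cannot be told apart into fewer cells that express a gene and less of its RNA in each cell. Nor can it be told apart from a change in the rest of the RNA.

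In a growing yeast cell the nucleolus transcribes 1 long precursor of ribosomal RNA. The small subunit processome, built around the U3 small nucleolar RNA and the UtpA, UtpB and Mpp10 complexes, forms on its leading end, while another set of factors folds the part that becomes the large subunit. Box C/D and box H/ACA particles guide methylation and pseudouridylation of the RNA, and GTPases act on the particles before export to the cytoplasm. The genes of these factors are known in budding yeast for being repressed together with ribosomal protein genes under many kinds of stress.

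Values are log2 ratios of a culture over the pool after the deposited values of the dye-swapped arrays were multiplied by -1. That direction is a likely reading of the dye labels, since the deposited table does not state it. Over all probes as deposited, the swapped array ran opposite to both normal arrays of its group only in SM1 with ethanol. There replicate 1 correlated at -0.15 and -0.11 with replicates 2 and 3. In W303-1A these correlations were 0.41 and 0.46 without ethanol and 0.0037 and 0.029 with it. They were -0.0031 and 0.13 in SM1 without ethanol. In CM1 they were 0.23 and 0.091 without ethanol and 0.30 and 0.14 with it. The reason was not tested. For ethanol minus no ethanol in W303-1A, the median deposited difference over the 60 genes was 0.96 on the swapped arrays and -1.37 on the normal arrays. The sign was opposite for 50 of the 60 genes, against 67.1 % of all genes. In CM1 those medians were 0.80 and -0.38, with opposite signs for 46 of the 60 genes against 55.8 % of all genes. In SM1 they were 0.07 and -0.07, with opposite signs for 37 of the 60 genes against 61.1 % of all genes. In the parent the normal arrays alone, which were not turned, gave 39 of the 60 genes as lower. That fit still reads these arrays as culture over pool, a direction that is not stated. With the swapped arrays left as deposited, 0 passed in the parent and the median difference was -0.60. The count with the swapped arrays included thus rested on the turning.

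**Figure D1:**
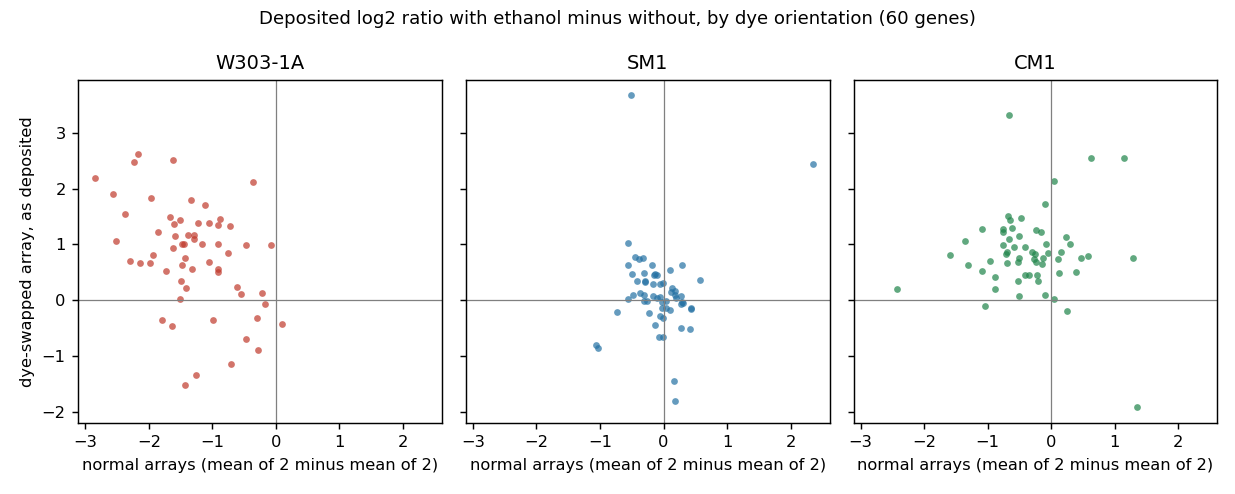
Deposited log2 ratio with ethanol minus without, on the dye-swapped array (vertical axis) and on the normal arrays (horizontal axis, mean of 2 minus mean of 2), 1 point per assembly factor and 1 panel per strain. In W303-1A most points lie at negative values on the normal arrays and positive values on the swapped array, while in SM1 most lie near 0 on both axes.

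On each array the median over the 60 factors gives a plain view of the data. In W303-1A without ethanol it was -0.06, 0.27 and 0.20 for replicates 1, 2 and 3. With ethanol it was -0.99, -1.21 and -1.12. On these arrays 49, 57 and 56 of the 60 factors had ratios below 0, against 53.1, 48.1 and 47.8 % of all genes. All 3 parent arrays with ethanol thus lay below the other 15. The SM1 arrays had medians of 0.13, 0.12 and 0.08 without ethanol, and of 0.01, 0 and 0.02 with it. For CM1 the medians were 0.28, 0.17 and 0.28 without ethanol and -0.57, 0.01 and -0.17 with it, so the swapped CM1 array lay lower than its 2 normal companions. Of the 60 factors, 52 had their lowest group mean in W303-1A with ethanol, a count without the share of all genes beside it.

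**Figure D2:**
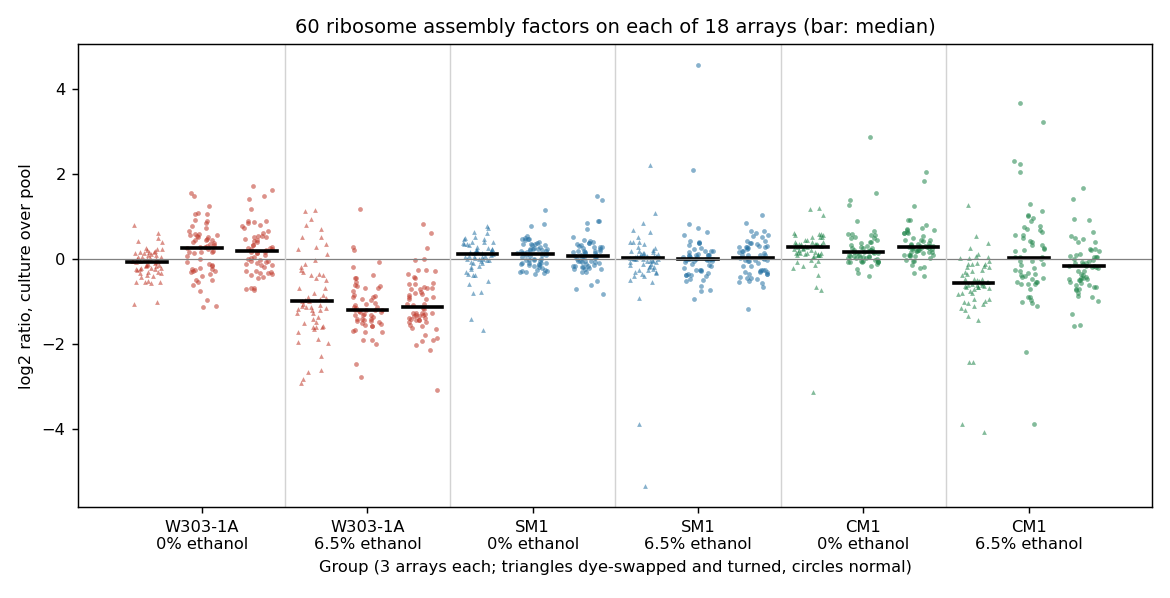
Log2 ratio of culture over pool (vertical axis) for the 60 assembly factors on each of the 18 arrays, grouped by strain and ethanol, with triangles for dye-swapped arrays after turning, circles for normal arrays and bars for the median of each array. The 3 arrays of W303-1A with ethanol have medians between -1.21 and -0.99, below those of all other arrays.

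Ethanol in the parent lowered most of the assembly factors. With limma and a Benjamini-Hochberg adjusted p under 0.05 over all 5650 genes, 41 of the 60 fell and 0 rose. Of all genes, 13.6 % fell and 10.2 % rose. The median difference over the factors was -1.14 on the log2 scale, against 0.03 over all genes. Of the 60 estimates 58 were below 0, a count without the share of all genes beside it. The estimates ran from -2.63 to 0.21. Among the 41 that fell, 36 fell at least 2-fold and 6 at least 4-fold. For 40 of the 60 all 3 arrays with ethanol lay below all 3 without, which held for 14.3 % of all genes, and for 0 all 3 lay above, against 12.1 % of all genes. The falls were spread over both subunits, with 19 of 26 small subunit factors lower at a median of -1.07 and 16 of 26 large subunit factors lower at a median of -1.29.

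Among the modification particles, 2 of the 3 box C/D genes fell. NOP1, the fibrillarin methyltransferase, had log2 ratios of -0.38, 0.44 and -0.34 without ethanol and -1.08, -2.47 and -2.02 with it. The 2 groups did not overlap, and the difference was -1.76 ± 0.33 (SE, n = 3 per group), with an adjusted p of 0.00142 in limma. NOP56, its partner in the particle, fell by 1.31. The other core protein, NOP58, did not pass, at -0.49 ± 0.24. Of the H/ACA genes, GAR1 fell by 1.12 ± 0.25 (adjusted p = 0.00406 in limma), from -0.33, -0.11 and 0.32 to -0.68, -1.46 and -1.32. NHP2, a core protein of the same particle, fell by 0.79, from -0.42, -0.15 and -0.29 to -1.26, -1.24 and -0.71. CBF5, the pseudouridine synthase itself, did not pass and was among the noisiest members.

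NSR1, the yeast counterpart of nucleolin, had the largest fall of the 60. It stood at 0.22, -0.62 and 0.47 in the parent without ethanol and at -1.96, -2.77 and -3.08 with it. The gap between the groups was wider than the spread within either one, and the fall was 2.63 ± 0.50, or 6.19-fold (adjusted p = 0.00161 in limma). NOP13, a related RNA-binding protein of the nucleolus, fell by 1.22.

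In the small subunit processome, UtpA is the complex that binds the precursor first. Of its 6 genes 4 fell, namely UTP8, UTP10, UTP15 and UTP4, by between 0.94 and 1.49. UTP8 went from 0.20, -0.32 and 0.17 to -1.59, -1.40 and -1.42, a tight and separate cluster of values with ethanol. The UtpA genes UTP5 and UTP9 did not pass, at -0.10 ± 0.32 and -0.09 ± 0.32. In UtpB, the second large building block, 4 of 5 genes fell, UTP13, UTP18, DIP2 and PWP2. UTP13 went from -0.21, 0.29 and 0.22 to -1.71, -1.41 and -1.43, again without overlap. All 3 genes of the Mpp10 complex fell, MPP10 by 1.45 ± 0.19 (adjusted p = 9.1e-05 in limma), IMP3 and IMP4 by 1.07 each. MPP10 was at 0.16, 0.15 and 0.15 without ethanol and at -0.996, -1.48 and -1.41 with it, so the replicates without ethanol hardly differed from each other.

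Of the other processome factors 6 of 9 fell. RRP5, an RNA-binding protein needed for both subunits, dropped by 2.32 ± 0.29, or 4.98-fold (adjusted p = 6.97e-05 in limma), from 0.21, 0.36 and 0.85 to -2.27, -1.42 and -1.84. EMG1, a methyltransferase of small subunit RNA, fell by 1.56, RRP9, a U3 particle protein, by 1.32, and the GTPase BMS1 by 1.16. SOF1 and UTP22 also fell, by 1.06 and 0.79. KRR1, NOP14 and UTP20 did not pass, at -0.18, -0.08 and -0.78. Among the factors that stay with the small subunit until late, LTV1 fell by 1.49 ± 0.26, from -0.22, 0.59 and 0.23 to -1.65, -0.93 and -1.28, and ENP1 by 1.01. The third of them, RRP12, which acts in export of both subunits, did not pass, at 0.21 ± 0.22.

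Several large subunit factors fell by more than 2 log2 units. YTM1, a part with NOP7 and ERB1 of the PeBoW complex, dropped by 2.34 ± 0.35, or 5.08-fold (adjusted p = 0.000263 in limma). Its ratios were -0.05, 0.56 and 0.89 without ethanol and -1.96, -1.52 and -2.15 with it, so every ethanol array lay at least 1 log2 unit below the lowest of the others. ERB1 fell by 2.03 and NOP7 by 1.28. BRX1 fell by 2.32 and its partner EBP2 by 1.02. In all, 10 of the 16 early nucleolar genes fell, also NOP4, NOP8, NOP15, CIC1 and RLP7. RPF2 and RRS1, which together load the 5S particle, both fell, by 1.54 and 0.92, with RPF2 moving from -0.39, 0.90 and 0.16 to -1.07, -1.45 and -1.44.

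Among the GTPases that act on large subunit particles, NOG2 had the smallest p of all 60 members. It stood at -0.05, 0.52 and 0.77 without ethanol and at -1.87, -1.31 and -1.33 with it. The difference was -1.92 ± 0.21, a 3.79-fold fall (adjusted p = 2.92e-05 in limma). NOG1 fell by 2.10, and RLP24, which binds it in the particle, by 1.32. NUG1, another GTPase, and TIF6, which keeps the subunits apart, did not pass, at -0.65 ± 0.29 and -1.11 ± 0.47. NIP7, a factor of large subunit RNA processing, fell by 1.64 ± 0.26, from -0.26, 0.23 and 0.52 to -0.93, -1.89 and -1.62. Of the RNA methyltransferases of this subunit, SPB1, NOP2 and RRP8, none passed.

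Of the 19 genes that did not pass in the parent, some had estimates close to 0 with a spread near that of other members, such as RRP12, KRR1 and UTP9. NOP14 gave 0.71, -1.03 and -0.93 with ethanol, the swapped array above 0 and both normal arrays below. UTP5, MAK16, SPB1 and SSF1 had the same pattern, and the part of dye orientation in it was not tested. Others had large errors, with a standard error of 1.11 for NOP2 and 1.03 for CBF5, close to the median fall, and a larger one for NOP12. The residual SD was 2.12 for NOP12, 1.56 for NOP2 and 1.45 for CBF5, against a median of 0.33 over the members and 0.39 over all genes. In CM1 with ethanol, NOP12 gave -3.87, 3.21 and 0.23, and NOP2 gave -4.06, 3.66 and -0.10. CBF5 gave -5.33, -0.36 and 1.04 in SM1 with ethanol. SSF1 has a near-identical copy, SSF2, and its value may hold signal from both.

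**Figure D3:**
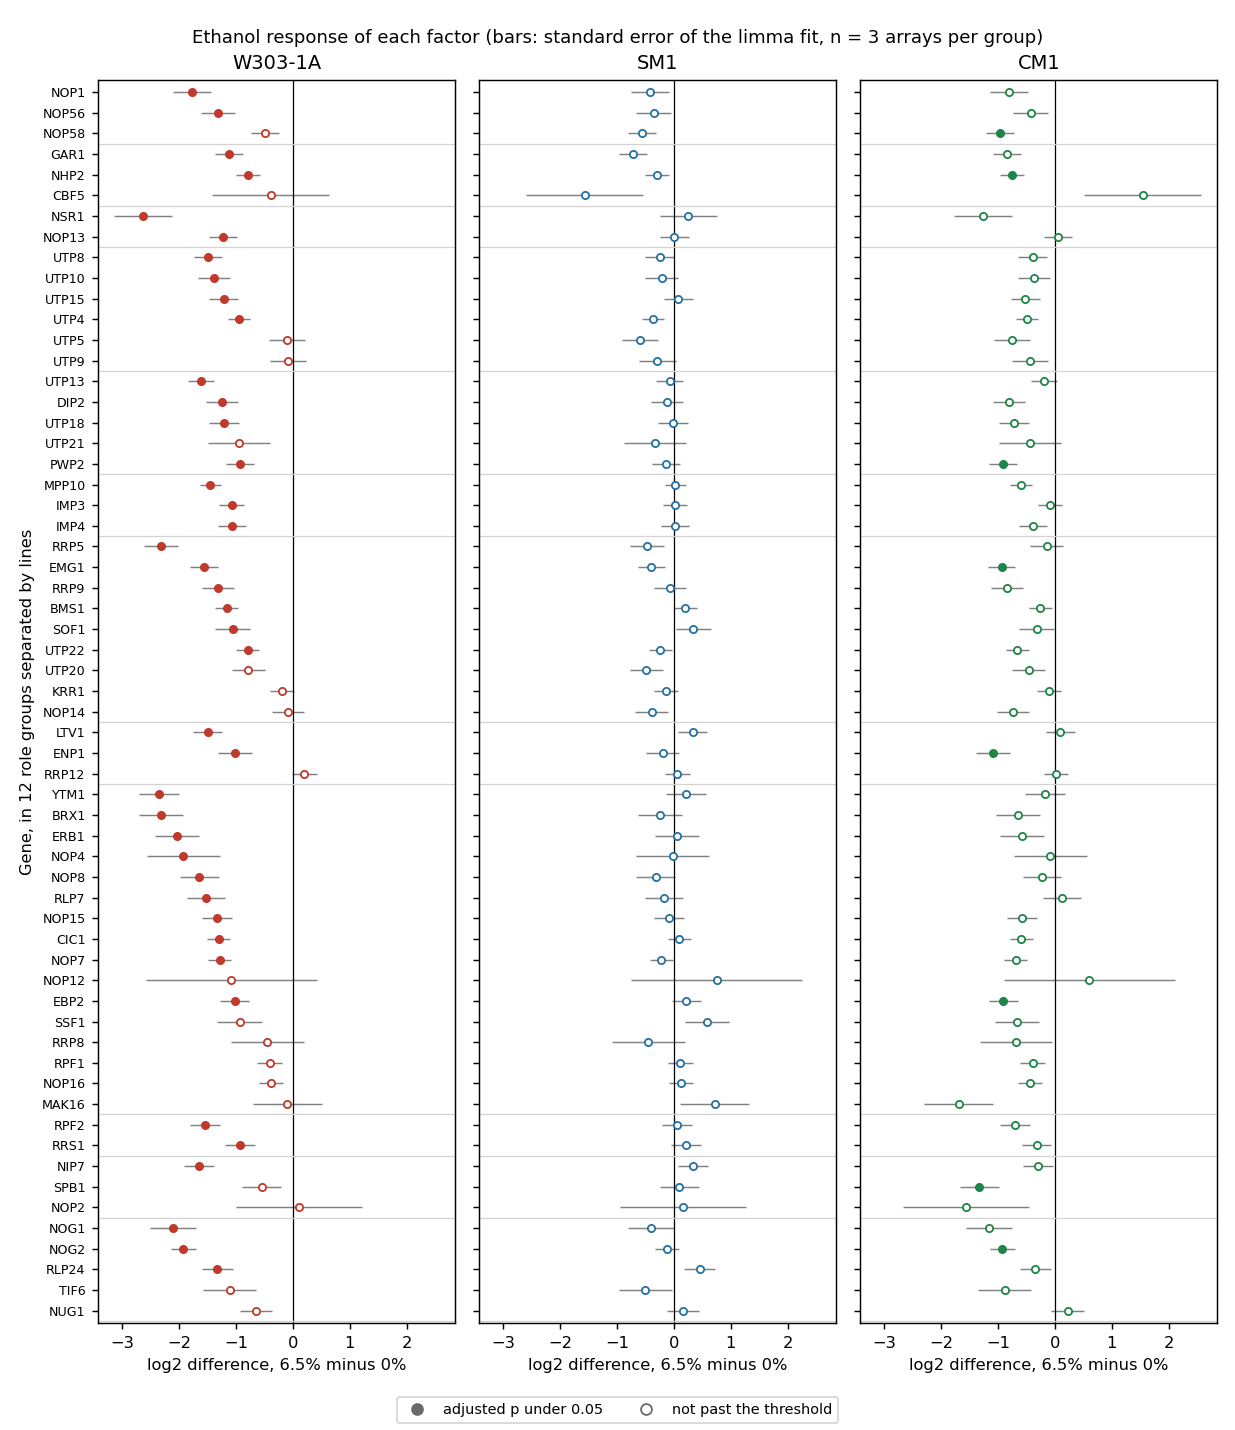
Log2 difference with ethanol minus without (horizontal axis) for each of the 60 assembly factors in the 3 strains. Bars are 1 standard error of the limma fit to either side, and filled points are differences past the adjusted p of 0.05. Most red points for W303-1A lie at the left, around -1.14, while blue SM1 points lie around -0.08 and green CM1 points between them, around -0.55.

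Ethanol in SM1 gave no change in the assembly factors that passed. Of the 60, 0 fell and 0 rose in limma, while 1.26 % of all genes fell and 2.83 % rose. At an unadjusted p under 0.05 there were 2, GAR1 and NOP58. The median estimate was -0.08, with 34 of the 60 below 0 and a range of -1.57 to 0.76. The counts at an unadjusted p and of estimates below 0 have no share of all genes beside them. All 3 ethanol arrays lay below all 3 without for 11 members and above for 4, against 10.4 % and 13.2 % of all genes.

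The 3 members with the smallest p in SM1 were GAR1, NOP58 and UTP4. GAR1 was at 0.77, 0.40 and 0.50 without ethanol and at -0.25, -0.04 and -0.16 with it, groups that did not overlap, yet the difference of -0.71 ± 0.25 had an adjusted p of 0.135 in limma. NOP58 was at 0.72, 0.24 and 0.34 against -0.06, 0 and -0.31, a difference of -0.56 ± 0.24. UTP4 was at 0.18, -0.16 and -0.07 against -0.30, -0.50 and -0.36, a difference of -0.37 ± 0.19. These 3 thus separated by group in SM1 without passing.

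Members that fell in the parent had these values in SM1. NOG2 was at 0.12, 0.34 and 0.29 without ethanol and at -0.20, 0.41 and 0.18 with it, and the 95 % interval of the difference was -0.57 to 0.34. MPP10 was at 0.18, -0.02 and -0.16 against 0.03, 0.09 and -0.04, with an interval of -0.37 to 0.43. Both intervals leave out a 2-fold fall, that is, a difference of -1. That held for 42 of the 60 members in SM1, against 24 in CM1 and 7 in W303-1A. For 37 members the SM1 interval lay within -1 to 1. YTM1 gave -0.03, 0.25 and 0.23 without ethanol and 0.63, 0.09 and 0.37 with it. NSR1 gave 0.34, 0.48 and 0.17 against -0.02, 2.09 and -0.30, where the second ethanol array stood far above the others.

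By its median, CM1 lay between the other strains. In limma 8 of the 60 factors fell with ethanol and 0 rose, while 1.73 % of all genes fell and 3.88 % rose. The median was -0.55, with 53 of the 60 estimates below 0 and a range of -1.69 to 1.54. At an unadjusted p under 0.05 there were 25. This count and that of estimates below 0 have no share of all genes beside them. All 3 ethanol arrays lay below all 3 without for 24 members and above for 1, against 8.12 % and 9.66 % of all genes. The count of 8 depended on single arrays. It was 0 without replicate 1 or replicate 3 of CM1 without ethanol, 2 without its replicate 2, and with ethanol 3 without replicate 1 and 2 without replicate 3. It was 0 with the swapped arrays not turned, where the median was 0.04, above the -0.02 of SM1.

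The 8 genes were NOG2, NOP58, SPB1, EMG1, PWP2, ENP1, NHP2 and EBP2, which span both subunits and both kinds of modification particle. Of these, 6 also fell in W303-1A, all but NOP58 and SPB1. NOG2 went from 0.51, 0.38 and 0.49 to -0.71, -0.05 and -0.61, a fall of 0.92 ± 0.21 (adjusted p = 0.0203 in limma). NOP58 went from 1.19, 0.17 and 0.20 to -0.32, -0.54 and -0.46, a fall of 0.96 ± 0.24. SPB1, a methyltransferase of large subunit RNA, went from 0.61, -0.03 and 0.15 to -0.19, -2.19 and -0.86, with the largest fall of the 8 at 1.32 ± 0.34 and ethanol arrays that differed widely. The adjusted p of all 8 lay between 0.0203 and 0.0495 in limma. Of the 41 factors that fell in the parent, 38 had a CM1 estimate below 0 and 24 an SM1 estimate below 0. Of all genes that fell in the parent, those shares were 77.2 % and 68.9 %.

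Some large falls of the parent had no counterpart in the CM1 means. RRP5 was at 0.40, 0.03 and 0.25 without ethanol and at -0.60, 0.68 and 0.18 with it. YTM1 was at 0.09, 0.33 and 0.29 against -0.66, 1.13 and -0.29, and LTV1 at 0.30, -0.04 and 0.07 against -0.20, 0.76 and 0.05. In each of the 3 genes the swapped array was the lowest with ethanol and replicate 2 the highest, as in the array medians, and the part of dye orientation in this was not tested.

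The difference between strains in the ethanol response was tested directly. Against the parent, the SM1 response was higher for 18 of the 60 factors and lower for 0 in limma, where 4.55 % of all genes were higher and 1.82 % lower. The median difference of responses was 1.17. With the swapped arrays left as deposited it was 0.55 and 0 factors passed. NOG2 had a difference of 1.80 ± 0.30 (adjusted p = 0.00415), MPP10 of 1.48 ± 0.27 (adjusted p = 0.00692) and NIP7 of 1.99 ± 0.37 (adjusted p = 0.00764). NIP7 in SM1 was at 0.05, -0.26 and -0.20 without ethanol and at 0.20, 0.00 and 0.42 with it. NSR1 had a difference of 2.89, with 1 SM1 ethanol array at 2.09 and the others at -0.02 and -0.30. The remaining ones were YTM1, LTV1, CIC1, BMS1, UTP13, RLP24, RRP5, RPF2, BRX1, ERB1, NOP7, IMP3, UTP15 and UTP8, at 1.06 to 2.56. The count fell to 11 without replicate 3 of W303-1A without ethanol, without replicate 2 of W303-1A with ethanol or without replicate 3 of SM1 with ethanol, and to 9 without replicate 2 or replicate 3 of SM1 without ethanol.

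For CM1 against the parent, the response was higher for 4 factors and lower for 0, where 3.45 % of all genes were higher and 1.2 % lower. They were RRP5 at 2.17 ± 0.41 (adjusted p = 0.00926 in limma), YTM1 at 2.17 ± 0.50, LTV1 at 1.58 ± 0.36 and UTP13 at 1.42 ± 0.33, the last 3 with an adjusted p of 0.0216. The share of members that passed was above that of all genes, but it rests on 4 genes and the excess was not tested. The median over the 60 was 0.69, and with the swapped arrays left as deposited 0.61 with 0 passed, which is above the 0.55 of SM1. The count was 1 without replicate 2 of W303-1A without ethanol or without replicate 3 of CM1 without ethanol, 2 without replicate 2 of CM1 without ethanol, and 13 without replicate 1 of CM1 with ethanol. Both differences use the same parent arrays and are not independent of each other.

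Between the mutants no factor passed, with 0 lower and 0 higher against 0.23 % and 0.106 % of all genes. At an unadjusted p under 0.05 there were 11, without the share of all genes beside it. The median difference, CM1 minus SM1, was -0.42, and near 0 (0.0047) with the swapped arrays left as deposited. EBP2 had the smallest p, at -1.12 ± 0.36 (adjusted p = 0.283 in limma). It was at 0.16, 0.26 and 0.64 in CM1 without ethanol and at -0.35, -0.58 and -0.72 with it, while in SM1 it was at 0.06, -0.18 and -0.30 against 0.12, -0.06 and 0.18. SPB1 was next at -1.42 ± 0.48, and MAK16, an early large subunit factor, at -2.41 ± 0.86. MAK16 gave 2.20, -0.01 and -0.53 in SM1 with ethanol and 0.37, -3.88 and -1.28 in CM1 with ethanol, so that in both groups the swapped array was the highest.

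With ethanol present, the mutants held more assembly factor RNA relative to the pool than the parent did. In SM1, 39 of the 60 were higher than in W303-1A and 0 lower in limma, where 10.3 % of all genes were higher and 7.19 % lower. The median difference was 1.00, or 0.38 with 0 passed when the swapped arrays were left as deposited. Estimates above 0 numbered 56, without the share of all genes beside it. All SM1 arrays lay above all parent arrays for 40 and below for 1, against 14.8 % and 10.8 % of all genes. NOG2 was higher by 1.64 ± 0.21 (adjusted p = 0.000213) and MPP10 by 1.32 ± 0.19 (adjusted p = 0.00035). NSR1 differed by 3.19 ± 0.50, with the same SM1 array at 2.09. CBF5, NOP14, RRP8 and NOP2 had estimates below 0, and none of them passed. The count was 25 without replicate 2 of W303-1A with ethanol.

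In CM1 with ethanol, 22 factors were higher than in the parent and 0 lower in limma, where 6.96 % of all genes were higher and 5.29 % lower. Estimates above 0 numbered 54, without the share of all genes beside it, and the median difference was 0.78. With the swapped arrays left as deposited it was 0.59 with 0 passed, above the 0.38 of SM1, so the order of the mutants depended on the turning. In the turned values all CM1 arrays lay above all parent arrays for 28 and below for 0, against 9.1 % and 6.9 % of all genes. UTP13 had the smallest p, at 1.62 ± 0.23 (adjusted p = 0.000544), with CM1 arrays at -0.60, 0.40 and 0.50. RRP5 followed at 1.93 ± 0.29 (adjusted p = 0.000806). With the 6 arrays of the 2 groups fitted alone, 1 passed. CM1 against SM1 gave 0 lower and 0 higher, against 1.17 % and 1.27 % of all genes. At an unadjusted p under 0.05 there were 15, without the share of all genes beside it. The median was -0.30, or 0.07 with the swapped arrays left as deposited. All CM1 arrays lay below all SM1 arrays for 14 members and above for 2, against 7.22 % and 5.47 % of all genes. NHP2 had the smallest p there, at -0.75 ± 0.21 (adjusted p = 0.0690 in limma), with SM1 at -0.17, 0.04 and 0.01 and CM1 at -1.01, -0.44 and -0.90, and MAK16 came next at -2.15 ± 0.61. Leaving out any 1 of the 3 CM1 arrays with ethanol gave 1 lower.

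**Figure D4:**
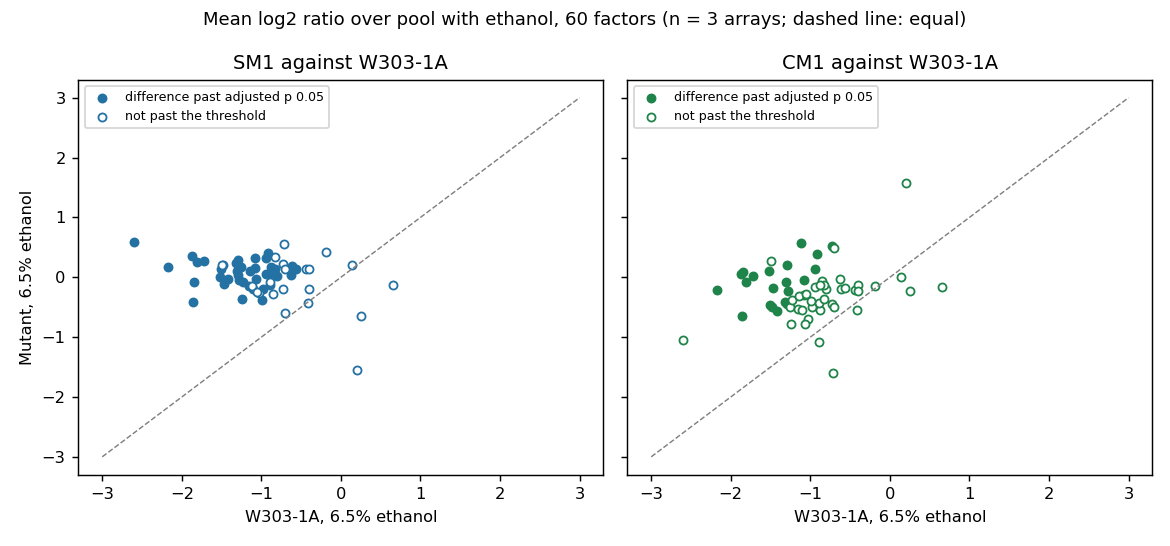
Mean log2 ratio over the pool with ethanol in SM1 (left, vertical axis) and CM1 (right, vertical axis) against W303-1A (horizontal axis), 1 point per assembly factor and n = 3 arrays per mean, with filled points for differences past the adjusted p of 0.05 and a dashed line of equality. Most points lie above the line in both panels, 56 of 60 for SM1 and 54 of 60 for CM1.

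Without ethanol no assembly factor differed between strains past the threshold. SM1 against W303-1A gave 0 lower and 0 higher, against 1.56 % and 0.177 % of all genes, with 5 at an unadjusted p under 0.05 and a median of -0.01. All SM1 arrays lay above all parent arrays for 4 members and below for 0, against 6.62 % and 9.06 % of all genes. CM1 against W303-1A also gave 0 in either direction, against 1.12 % lower and 0.106 % higher of all genes, with 3 at an unadjusted p under 0.05. There the median was 0.20, with 43 of the 60 estimates above 0. Its arrays lay above all parent arrays for 7 members and below for 0, against 5.66 % and 7.96 % of all genes. CM1 against SM1 gave 0 as well, against 0.195 % lower and 0.814 % higher of all genes, with 2 at an unadjusted p under 0.05. Its median was 0.14, with 46 estimates above 0, and the CM1 arrays lay above all SM1 arrays for 13 members and below for 1, against 6.44 % and 7.33 % of all genes. In all 3 comparisons, the counts at an unadjusted p and of estimates above 0 have no share of all genes beside them.

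NOP58 had the smallest p in both comparisons with the parent. It was at -0.08, -0.96 and -0.19 in W303-1A, at 0.72, 0.24 and 0.34 in SM1 and at 1.19, 0.17 and 0.20 in CM1. Both mutants were above all parent arrays, by 0.84 ± 0.24 (adjusted p = 0.123 in limma) and 0.93 ± 0.24 (adjusted p = 0.0858 in limma). NHP2 came next in SM1, at 0.55 ± 0.21, and RPF1 in CM1, at 0.59 ± 0.22. RPF1, a partner of MAK16 in the early large subunit particle, was at -0.09, -0.27 and -0.30 in W303-1A and at 0.58, 0.20 and 0.31 in CM1. Between the mutants CIC1 differed by 0.49 ± 0.20 and NUG1 by 0.65 ± 0.29, neither past the threshold. CIC1 was at -0.09, -0.31 and -0.01 in SM1 and at 0.46, 0.30 and 0.31 in CM1, and NUG1 at 0.06, -0.31 and -0.81 against 0.35, 0.10 and 0.44.

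Counts for other genes of the pathway in the parent are to be read against the 13.6 % of all genes that fell and the 10.2 % that rose. Of 18 helicases of ribosome biogenesis, which remodel the precursor particles, 7 fell in W303-1A with a median of -0.88, and HAS1 fell by 2.82 ± 0.30 and MTR4 by 1.80 ± 0.21. Of 19 measured late nuclear and cytoplasmic maturation factors 9 fell, with a median of -0.80, among them the export adaptor NMD3 at 2.02 ± 0.27 and SDA1 at 1.83 ± 0.21. None of either list rose. In RNA polymerase I and its factors 5 of 15 fell and 1 rose, with a median of -0.26, where the subunits RPA190 and RPA49 fell by 2.41 ± 0.29 and 2.34 ± 0.28 and RRN10 rose. The exosome and the nucleases of ribosomal RNA had 3 of 16 lower and 1 higher, with a median of -0.47, among them the exosome subunits RRP46 and RRP40, which fell by 1.45 ± 0.20 and 1.04 ± 0.27. The counts of the exosome list were near the shares of all genes.

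The regulators of ribosomal gene transcription had 2 of 14 lower in the parent, the DNA-binding factors RAP1 and FHL1, by 1.54 ± 0.37 and 1.73 ± 0.51, and 1 higher, TOR1, with a list median of 0.10. Here too the counts were near the 13.6 % and 10.2 % of all genes. Ribosomal proteins of the large subunit had 53 of 80 lower in the parent, with a median of -0.89, and those of the small subunit 42 of 55, with a median of -1.14. Many of these 2 lists are pairs of near-identical copies, so their signals can be shared.

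In SM1 with ethanol, 0 helicases, 0 polymerase I genes, 0 exosome genes and 0 late maturation genes passed in either direction, with medians of 0.05, 0.05, -0.14 and -0.01. Among the 14 regulators RAP1 and HMO1 fell there, by 1.82 ± 0.37 and 1.63 ± 0.27. Of all genes, 1.26 % fell and 2.83 % rose in SM1. Of the 80 large subunit ribosomal proteins 1 rose and 0 fell there, and of the 55 of the small subunit 0 moved. The medians of these lists were -0.18 and -0.16. In CM1 the medians of the 7 lists lay between -0.45 and -0.31. There 7 of 80 large and 4 of 55 small subunit ribosomal proteins fell, and 1 of 19 late maturation factors, IPI1. In the other 4 lists 0 genes passed. Of all genes, 1.73 % fell and 3.88 % rose in CM1.

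**Figure D5:**
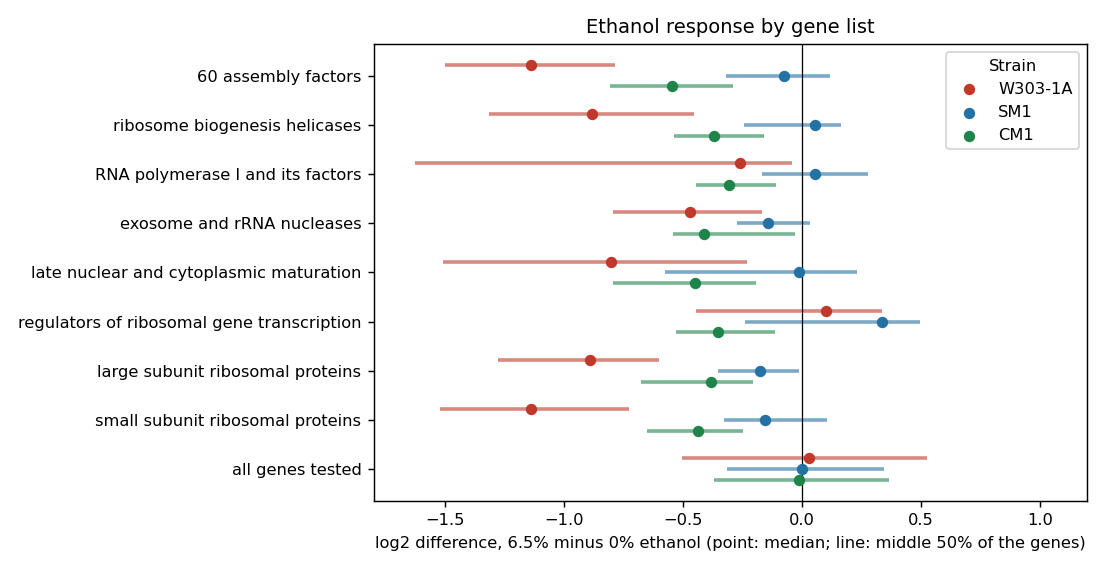
Log2 difference with ethanol minus without (horizontal axis) for the assembly factors, 7 other lists of the pathway and all genes tested, in each strain, with points for the median and lines for the middle 50 % of the genes. In W303-1A the medians of the assembly factors and of both ribosomal protein lists lie between -1.14 and -0.89. Those of the helicases and the late maturation factors lie just above. In SM1 the medians lie between -0.18 and 0.34.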

How the data were processed

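RNA of 18 yeast cultures was measured on two-colour arrays, with glass bead extraction, DNase treatment and indirect labelling of cDNA with AlexaFluor dyes, per the labels' protocols. The deposited values are normalized log ratios, read here as log2. The authors' log base, centring and ratio direction are not stated, and another base would scale all values without changing a test. Medians of the deposited columns lay between -0.0041 and 0.030. Signal intensities were not used here. Precision comes from the spread between arrays of a group, pooled for each gene over all 18 arrays after a term for dye orientation. It does not measure the spread in the compared groups alone.

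Values of the swapped arrays were multiplied by -1. Of 6368 probes, 5673 carried 1 symbol, 0 several and 695 none, and 23 genes with 2 probes were averaged, none of them a member. A model with group means and a dye orientation term was fitted to all 18 arrays with limma 3.58.1 in R 4.3.3 (lmFit, eBayes, 11 residual degrees of freedom), and p-values were adjusted by Benjamini-Hochberg over 5650 genes. Errors are SEs of the fit. Counts of the 60 at an unadjusted p under 0.05, of estimates above or below 0, of intervals and of lowest group means are given without the share of all genes. Such counts do not set the members apart from other genes. The code was tested on simulated data. Gene names are those of the probe annotation. All 60 members matched RefSeq by symbol. No coordinates are given, since the annotation's build is not named.

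The members and lists were chosen with earlier results of these data known. Values on each array are given for the member with the smallest p for ethanol in W303-1A in each sub-group, the 3 with the smallest p in the other responses and response differences, and the 2 with the smallest p in each strain comparison. Of the other lists, the 2 genes with the smallest p in W303-1A are named. Members with outlying arrays, those without a call, RRN10, TOR1, HMO1 and IPI1 were named after their values were seen. MDN1, of the late maturation list, was not found by its symbol. Alternatives covered turning, normalization, dye term, a replicate block, array weights, samples fitted and left-out arrays.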

Additional observations from a re-analysis of the deposited data

Results flagged for a closer look

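The ethanol response differed between strains by a test of the difference itself, the term for strain by ethanol in limma. It was higher in SM1 than in W303-1A for 18 of the 60 assembly factors, against 4.55 % of all genes. In CM1 it was higher than in W303-1A for 4 of 60, against 3.45 % of all genes, an excess that rests on 4 genes. The count for CM1 was 1 without the dye term and 1 with only the groups compared. Both counts were 0 with the swapped arrays left as deposited. The members with the smallest p were NOG2 (1.80), MPP10 (1.48) and NIP7 (1.99) for SM1. For CM1 they were RRP5 (2.17), YTM1 (2.17) and LTV1 (1.58), all as log2 differences of responses, mutant minus parent. The 4 members higher for CM1 were all among the 18 for SM1.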

How the results depend on the processing

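The count of 41 lower factors in the parent was 33 to 47 under the alternatives that kept the turned arrays and 36 to 41 with 1 array left out, and 0 when the swapped arrays were not turned. Not turning them also gave 0 for ethanol in CM1, for both mutants against the parent with ethanol and for both response differences against the parent, with NOP58 in CM1 at 0.046. The normal arrays alone gave 5 for ethanol in CM1, 2 for CM1 against SM1 with ethanol, both higher, and 11 for the CM1 response difference. Quantile normalization gave 1 for ethanol in SM1, 4 in CM1, 1 and 2 for SM1 and CM1 against the parent without ethanol, 23 and 11 with ethanol, and 8 and 2 for their response differences. Without the dye term the counts were 0 for ethanol in CM1 and 9 and 1 for the response differences of SM1 and CM1. Only the groups compared gave 0 for ethanol in CM1, 1 for CM1 against the parent with ethanol and 1 for the CM1 response difference. Array weights gave 1 for ethanol in SM1, 1 and 2 for SM1 and CM1 against the parent and 2 for CM1 against SM1 without ethanol, and 32 and 11 for the response differences. Removing the trend along the probe number gave 1 for CM1 against SM1 with ethanol, lower, and 2 for the CM1 response difference. Replicate numbers did not pair the samples (correlations of same-numbered deviations between -0.17 and 0.093 over 15 pairs of groups), and with the replicate block 4 factors fell in CM1 and no other count moved by over 1.5 times. With 1 array left out, counts were 0 to 7 for ethanol in CM1, 25 to 40 and 15 to 32 for SM1 and CM1 against the parent with ethanol, 0 to 1, lower, for CM1 against SM1 with ethanol, and 9 to 21 and 1 to 13 for the response differences of SM1 and CM1. The cause was not tested for any of these, save that fewer arrays enter some fits. Exact zeros treated as missing, an alternative chosen after seeing the data, moved no count by over 1.5 times. Without background signals, dim spots cannot be told from bright ones here.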

Other observations

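The array of SM1 with ethanol, replicate 2, held 167 probes at exactly 0, among them the members BMS1, NIP7, NOP2 and NOP58, against 25 on replicate 1 of W303-1A without ethanol and 15 on replicate 1 of SM1 with ethanol. In the RefSeq annotation of assembly R64, RPF1 and GAR1 are neighbours on the chromosome, and in the parent with ethanol RPF1 was at -0.40 and did not pass while GAR1 fell by 1.12. Other members stand beside a gene of another list, namely NSR1 beside MTR3, RRS1 beside UAF30, SSF1 beside RRP3, UTP13 beside IFH1 and UTP9 beside RIX1.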
